A study of Mus musculus with 4 samples.

Results

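The genes followed here are 9 of the 31053 in the count matrices. They encode the surface molecules through which a germinal center (GC) B cell gives signals to, and takes signals from, a helper T cell: Cd83, Cd86, Cd80, Icosl, Slamf1, Pdcd1lg2, Cd274, Il21r and Il4ra. The genes were listed by name and not by a rule on their values, although earlier results of these data were known when they were chosen. Each was read in the GC B cell subtypes and along the pseudotime of the study's cell annotation, in the 4 genotypes, and in the B cells that the annotation leaves out. Il21r and Il4ra are receptors for T cell cytokines and not ligands, so they are described as a group of their own.

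In the GC, B cells divide and mutate their antibody genes as centroblasts (CB) in the dark zone, then move to the light zone as centrocytes (CC), where they take up antigen, present it to T follicular helper cells and compete for help. CD80 and CD86 engage CD28 and CTLA-4 on the T cell, CD83 keeps CD86 and MHC class II on the surface by opposing the ubiquitin ligase MARCH1, ICOS ligand engages ICOS, SLAMF1 binds itself on the facing cell, and PD-L1 (Cd274) and PD-L2 (Pdcd1lg2) engage the inhibitory receptor PD-1. In return the T cell secretes IL-21 and IL-4, which the B cell receives through IL21R and IL4RA, each paired with the common gamma chain.

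The study profiled B220+IgD- spleen cells 10 days after sheep red blood cells (SRBC) were given as antigen, by droplet single-cell RNA-seq that counts unique molecular identifiers (UMIs) at the 3′ end of transcripts. The mice were 8-week-old females on the C57BL/6J background, and every one carried Cg1Cre+/-, a Cre recombinase driven from the Ighg1 locus, which becomes active in B cells once they are activated. The WT mouse carried Cg1Cre alone, the C mouse also Crebbp fl/+, the K mouse also Kmt2d fl/+, and the CK mouse both floxed alleles. The comparison asks what CREBBP and KMT2D haploinsufficiency, alone or together, does to these genes at each stage of the GC. There was 1 mouse and 1 library per genotype, so no difference between genotypes was tested, and all intervals are 95% counting intervals that leave out the variation between mice. C, K and CK were each set against the same WT library, so the 3 comparisons are not independent.

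The libraries held 8071 (WT), 9981 (C), 8105 (K) and 12852 (CK) barcodes with 33270825 to 39803865 UMIs, and the annotation covers 1227, 2041, 2583 and 3953 of those cells. It holds no cell at or above 2500 detected genes, so 2886 further cells from GC B-like clusters are described separately. Pairs of libraries shared 17 to 31 barcodes. Sums of 7 GC marker genes were 1662 to 2297 CPM (UMIs of a gene per 1000000 UMIs of the cell class in a library) in the annotated CB and CC and 118 to 165 in unannotated follicular B-like cells, but only 114 to 206 in the annotated prememory cells, 509 of 578 of which lay in follicular B-like clusters. Crebbp stood at 68.4, 43.0, 38.6 and 38.0 CPM in the annotated cells of WT, C, K and CK, and Kmt2d at 18.5, 21.3, 9.85 and 15.1, in reads from the 3′ end that do not cover the deleted parts. The K library stood apart: 2 clusters were 92.4% and 96.1% K cells and held 45.4% of its CB but 0.491% of its CC, and the median gene in K was -0.15 (CB) and -0.14 (CC) relative to WT on the log2 scale, against which K values below should be read. Cluster 9 held the largest share of CB in WT, C and K (45.8% to 63.9%) and cluster 6 in CK (49.4%), whereas cluster 4 held 83.1% to 89.7% of CC in each library.

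Cd83 set CC apart from CB in each library. Its level in CB of WT, C, K and CK was 60.3, 81.3, 86.7 and 79.0 CPM, and in CC it was 421, 466, 572 and 526. Every CC value lay above every CB value, and in CC all 3 mutants lay above WT. Cells labelled as transitioning between CB and CC held 113, 123, 124 and 103 CPM, above the CB of the same library and far below its CC. Early CB, by contrast, held 213, 169, 201 and 155, and prememory cells 249.9, 271, 351 and 319.

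Of the CD28 ligands, Cd86 gave enough UMIs to compare stages. In WT, C, K and CK it stood at 49.9, 51.0, 54.9 and 40.1 CPM in CB, at 80.8, 69.3, 69.7 and 55.1 in transitioning cells and at 149, 131, 136 and 119 in CC. CK was the lowest library at each of these 3 stages. In prememory cells Cd86 was at 15.1 to 18.8 CPM, on 5 to 11 UMIs a library, while Cd83 there was far above its CB level. Cd80 gave 7, 16, 8 and 22 UMIs in all annotated cells of WT, C, K and CK together, too few to compare subtypes or genotypes at this depth.

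Icosl, the ligand of the costimulatory receptor ICOS, was at 16.6, 14.9, 12.5 and 13.0 CPM in CB of WT, C, K and CK and at 42.1, 40.3, 32.8 and 45.8 in CC. Its transitioning cells (37.1, 28.9, 27.8 and 31.4 CPM) lay nearer to the CC than to the CB of the same library. They were close to the CC level in WT and K and further below it in C and CK, whereas for Cd83 they were far below the CC level in each library. Slamf1, the homotypic adhesion and signalling receptor, was at 32.2, 29.8, 29.3 and 31.2 CPM in CB, values that lay within one another's counting intervals. In CC it was at 142, 142, 108 and 134 CPM, with K the lowest and its interval of 95.4 to 122 below those of WT (125 to 161) and C (125 to 160).

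**Figure D1:**
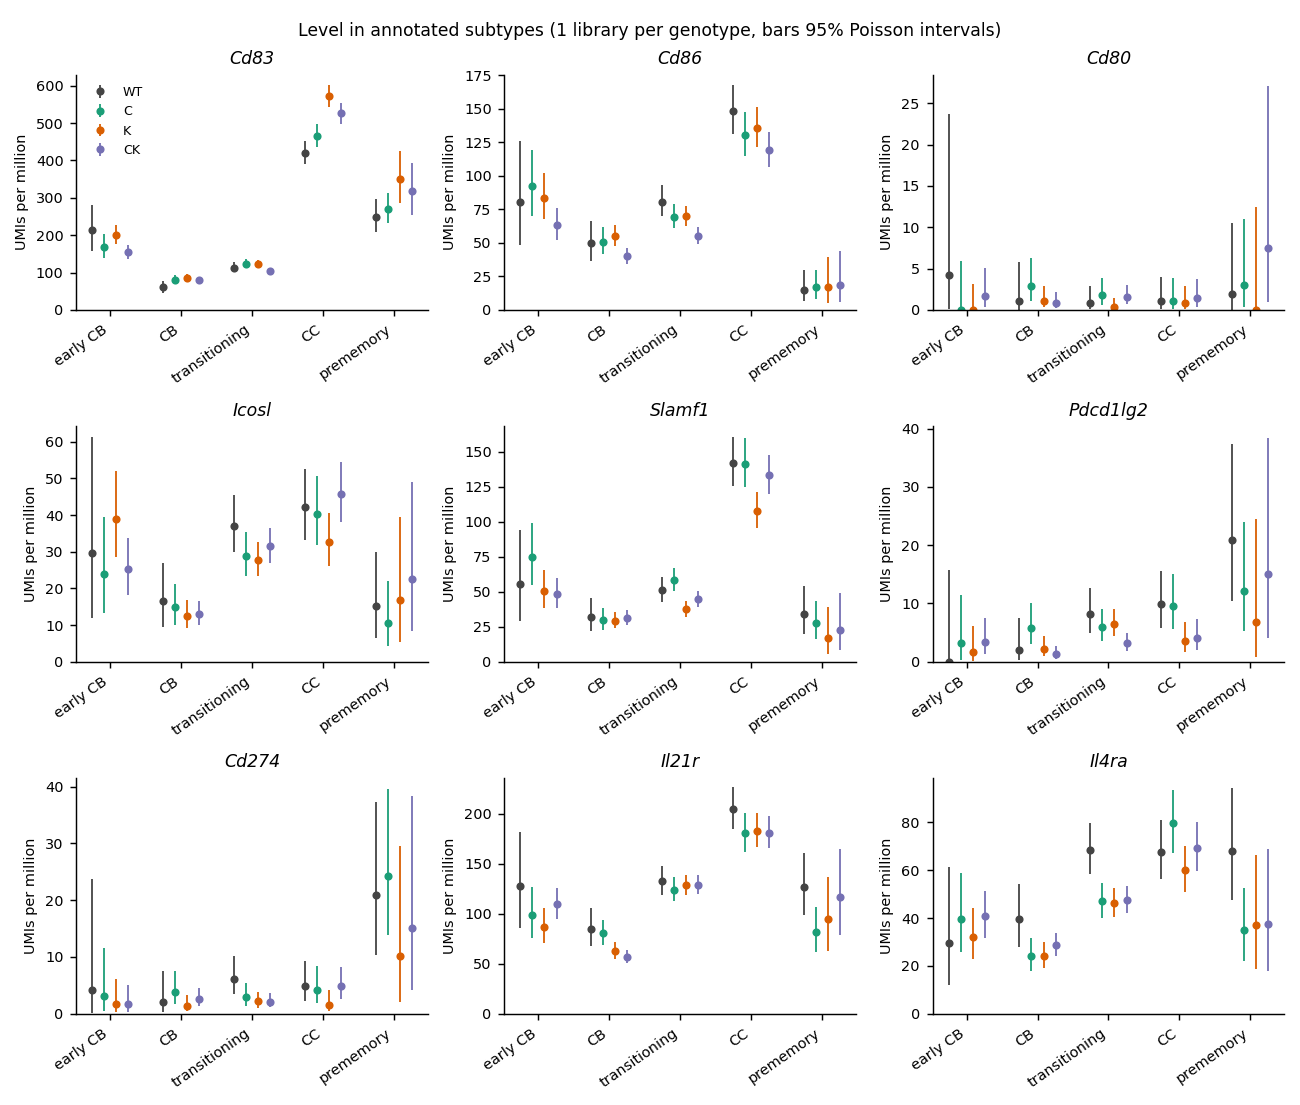
Level of each gene in CPM (vertical axes, one panel per gene, each with its own scale) in 5 annotated GC subtypes (horizontal axis), with one point per genotype library and bars giving the 95% Poisson interval of the count. Cd83, Cd86, Slamf1 and Il21r have their highest levels in centrocytes in all 4 libraries, with Cd83 at 421 to 572 CPM there, while Cd274 is highest in prememory cells.

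The ligands of PD-1 gave few UMIs in GC cells. Pdcd1lg2 gave 18, 18, 9 and 11 UMIs in CC of WT, C, K and CK, or 9.84, 9.56, 3.60 and 4.06 CPM, and 2, 12, 8 and 6 UMIs in CB. Cd274 gave 9, 8, 4 and 13 UMIs in CC and 2, 8, 5 and 12 in CB. Cd274 was higher in prememory cells, at 20.8, 24.3, 10.1 and 15.01 CPM on 3 to 16 UMIs. Among the T-like cells carried along in the sort, Pdcd1lg2 was at 10.3 to 13.4 CPM and Cd274 at 12.8 to 20.2. In each library the CC level of either gene was below its level in T-like cells, but for Pdcd1lg2 in WT and C this order was within counting error.

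The cytokine receptors were already present in CB. Il21r stood at 85.2, 80.3, 62.5 and 56.9 CPM in CB of WT, C, K and CK, at 133, 124, 129 and 129 in transitioning cells, and at 205, 180.5, 183 and 181 in CC. K and CK were the lower pair in CB, but the 4 transitioning values lay close together. Il4ra stood at 39.5, 24.1, 24.2 and 28.7 CPM in CB, at 68.5, 46.9, 46.1 and 47.4 in transitioning cells, and at 67.8, 79.6, 59.9 and 69.4 in CC. WT was thus above every mutant in CB and in transitioning cells, and lay between the mutants in CC. Prememory cells followed the earlier stages, with Il4ra at 68.2 CPM in WT and 34.98 to 37.5 in the mutants, on 36 UMIs in WT and 10 to 23 in the mutants.

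Il4ra and Il21r are neighbours on chromosome 7 (GRCm38, plus strand), at chr7:125552120-125579474 and chr7:125603429-125633570, with 24.0 kb between them. Cd274 (chr19:29367455-29388095) and Pdcd1lg2 (chr19:29410919-29471161) are likewise 22.8 kb apart on the plus strand of chromosome 19. Cd80 (chr16:38455561-38496335, plus) and Cd86 (chr16:36603869-36666081, minus) share chromosome 16, and Cd83 lies at chr13:43784775-43803132, Icosl at chr10:78069302-78083913 and Slamf1 at chr1:171767127-171801184, all plus. RefSeq promoter sequence of GRCm38.p6, from 250 bases before to 50 bases after the start site, was at hand for 7 of the 9 members. The promoters of the receptor pair are shown because these neighbouring genes had the most alike levels among the members, as given with the other correlations; in capitals are the octamer letters ATGNAAAT in Il4ra (chr7:125552021-125552320, plus) and the cyclic AMP response element letters TGANGTCA in Il21r (chr7:125603179-125603478, plus):
Il4ra promoter: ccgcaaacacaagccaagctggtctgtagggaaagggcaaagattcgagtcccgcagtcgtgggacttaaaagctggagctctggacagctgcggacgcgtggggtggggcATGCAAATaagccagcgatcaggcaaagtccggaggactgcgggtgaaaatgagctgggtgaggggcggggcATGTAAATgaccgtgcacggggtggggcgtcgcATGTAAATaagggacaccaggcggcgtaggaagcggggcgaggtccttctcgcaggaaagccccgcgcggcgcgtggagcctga
Il21r promoter: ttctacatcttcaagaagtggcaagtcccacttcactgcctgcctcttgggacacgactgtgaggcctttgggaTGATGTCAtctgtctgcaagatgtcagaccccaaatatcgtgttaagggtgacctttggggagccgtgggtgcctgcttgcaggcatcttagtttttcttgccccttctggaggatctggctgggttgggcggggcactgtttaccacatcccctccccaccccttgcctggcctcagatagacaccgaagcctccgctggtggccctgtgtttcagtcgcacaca
The 3 octamer matches of Il4ra lie 139, 67 and 34 bases before the RefSeq start site. That site lies inside the GENCODE span given above for Il4ra, which begins further upstream, so the 3 matches are within the annotated gene. The single match of Il21r lies 176 bases before its start site, which is the same in both annotations. Read on both strands, the octamer letters occur in 5.67% of 32851 promoters of this length and TGANGTCA in 8.83%, and neither occurs in the other 6 member promoters. The AP-1 letters TGANTCA occur in 7.81% of promoters and in Cd80 alone of the 7, and the STAT letters TTCNNNGAA in 8.30% and in none of the 7. These are letter matches in a window, picked for display after the sequences were seen.

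Set as ratios, the step from CB to CC was upward for each member that could be measured. Of the genes with at least 20 UMIs in the pair of groups compared, 7 of 7, 7 of 7, 6 of 6 and 7 of 7 members (WT, C, K, CK) were higher by 1.5-fold or more in CC, against 15.2%, 14.3%, 14.2% and 16.8% of all genes. Pdcd1lg2 in WT entered on 18 UMIs in CC and 2 in CB, so it passed the filter only through the group where it was high. The steps of Pdcd1lg2 in C (-0.41 to 1.91) and of Cd274 in CK (-0.34 to 2.18) were within counting error. The median member ratio was 1.58, 1.44, 1.47 and 1.67 on the log2 scale, and that of all genes -0.13, -0.07, -0.09 and -0.02. The labels CB and CC were themselves assigned from expression, so this step is a description of the annotated groups and not a test.

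Cd83 had the steepest step among the members in each library, with log2 ratios of 2.80 (interval 2.42 to 3.21), 2.52, 2.72 and 2.73 for WT, C, K and CK. Slamf1 followed at 2.14, 2.25, 1.88 and 2.10, apart from Pdcd1lg2 in WT at 2.24 on 2 UMIs in CB. Cd86 stepped by 1.58, 1.36, 1.31 and 1.57, and Icosl by 1.34, 1.44, 1.39 and 1.82. For Cd83, Cd86 and Slamf1 no mutant step differed from that of WT by more than 0.29. The Icosl step was larger than in WT in each mutant, by 0.10, 0.05 and 0.48 for C, K and CK, with intervals that include 0 (-0.51 to 1.40 for CK). When the 2 clusters led by K were left out, the K steps were larger, at 3.28 for Cd83 and 3.44 for Slamf1.

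Of the receptors, Il4ra had the shallowest step in WT, 0.78 (interval 0.24 to 1.34). Its mutant steps were 1.73 (1.26 to 2.22), 1.31 (0.92 to 1.71) and 1.28 (0.95 to 1.61) for C, K and CK. The step in C exceeded that in WT by 0.95 (0.21 to 1.67), and those in K and CK by 0.53 (-0.16 to 1.20) and 0.50 (-0.16 to 1.12), intervals that include 0. Il21r stepped by 1.27, 1.17, 1.55 and 1.67 for WT, C, K and CK, and CK exceeded WT by 0.41 (-0.02 to 0.82).

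**Figure D2:**
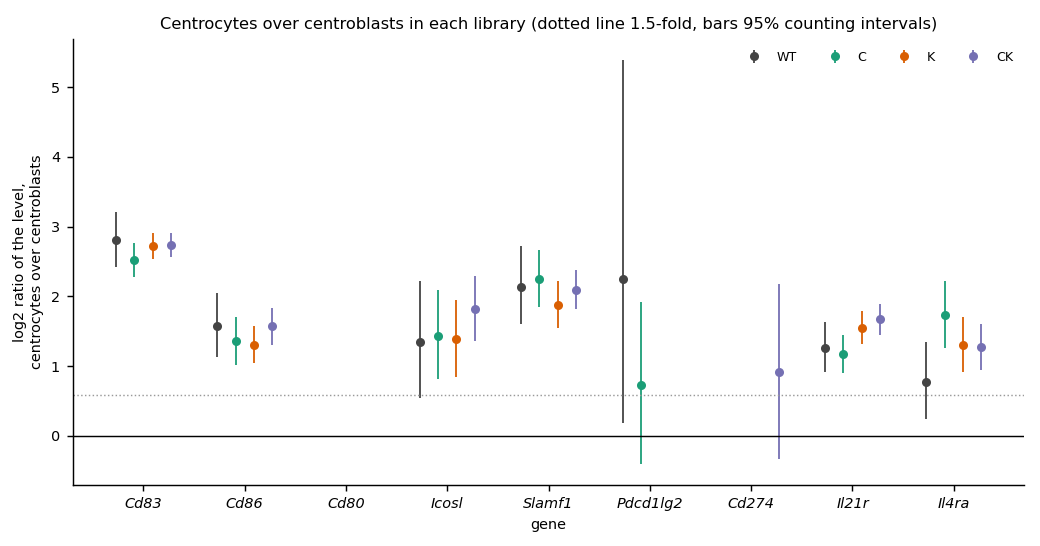
Log2 ratio of centrocytes over centroblasts (axis of values) for each gene with at least 20 UMIs in both groups together, one point per genotype library, with bars for the 95% counting interval. All points lie above 0, Cd83 lies between 2.52 and 2.80, and Il4ra has its WT point (0.78) below its 3 mutant points (1.28 to 1.73), as does Icosl (1.34 against 1.39 to 1.82) with wider bars.

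Between mutant and WT CB the ratios farthest from 0 were those of the receptors and Cd83 in K and CK, and of Il4ra and Cd83 in C. Past a 1.5-fold difference lay 1 of 6 members in C and 1 of 6 in K, both lower and both Il4ra, and 0 of 6 in CK, and none was higher. Among all genes, 8.18% were lower and 8.79% higher in C, 23.2% and 7.45% in K, and 12.0% and 11.5% in CK. The member counts in K and CK lie below these shares, and that in C is a single gene. The median member ratio was -0.10, -0.27 and -0.34 (log2) for C, K and CK, beside -0.02, -0.15 and -0.04 for all genes.

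Il4ra in CB was lower than WT by log2 ratios of -0.72 (-1.35 to -0.07), -0.71 (-1.28 to -0.12) and -0.46 (-0.99 to 0.10) for C, K and CK, and none of the alternative settings turned its direction. Il21r was at -0.09, -0.45 (-0.82 to -0.06) and -0.58 (-0.94 to -0.21) for the same mutants. Cd83 in CB was above WT at 0.43 (-0.01 to 0.89), 0.52 (0.12 to 0.96) and 0.39 (-0.01 to 0.81). With cells at or above 2500 genes added to the CB, the C and CK ratios of Cd83 became -0.03 and -0.06, so its excess in CB rests on the annotated cells. Icosl, Slamf1, Il21r and Il4ra were lower than WT in all 3 mutants, 4 of 6 members against 36.7% of all genes, although the Slamf1 ratios (-0.11, -0.14 and -0.05) were within counting error. Over the alternative settings the ratios of Icosl reached 0.03, 0.65 and 0.29 for C, K and CK, those of Slamf1 0.02, 0.59 and 0.48, and that of Il21r in C 0.05, so their direction depends on the setting.

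The K values in CB depend on which cells are counted. Without the 2 clusters led by K, the K over WT ratio in CB was -1.58 for Slamf1, -1.28 for Icosl, -0.34 for Cd86 and 0.04 for Cd83, and 4 members lay past 1.5-fold rather than 1. Il21r and Il4ra were at -0.63 and -0.61 without them, near their values with them.

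In CC the members parted by direction. Cd83 was above WT in all 3 mutants, at log2 ratios of 0.15 (0.00 to 0.29), 0.44 (0.31 to 0.57) and 0.32 (0.19 to 0.45) for C, K and CK, while Cd86, Slamf1, Pdcd1lg2 and Il21r were below WT in all 3, 4 of 7 members against 25.9% of all genes. The members past 1.5-fold were 0 of 7, 1 of 7 and 1 of 8 for C, K and CK, in K and CK alike Pdcd1lg2 and lower, and none was higher. Genes lower by that much made up 5.82%, 22.6% and 5.66% of all genes in C, K and CK, and those higher 5.71%, 4.60% and 7.17%. Some of these directions are slight, since over the alternative settings the C ratios of Slamf1 and Pdcd1lg2 reached 0.08 and 0.17 and the K ratios of Cd86 and Il21r 0.05 and 0.01. The median member ratio was -0.04, -0.18 and -0.06, beside 0.02, -0.14 and 0.04 for all genes.

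Cd86, whose protein CD83 stabilizes on the surface, lay on the other side of WT from Cd83 at the RNA level. Its ratios in CC were -0.19 (-0.44 to 0.07), -0.13 (-0.36 to 0.10) and -0.32 (-0.56 to -0.08) for C, K and CK. Over the 8 alternatives the CK ratio of Cd86 ran from -0.51 to -0.09 and that of Cd83 from 0.22 to 0.39, so neither changed sign. The C ratio of Cd83, however, became -0.21 and that of Cd86 0.23 when each was taken relative to the follicular B-like cells of its library. Slamf1 was at -0.40 (-0.65 to -0.15) in K, -0.00 in C (level with WT) and -0.09 in CK, and the K value became 0.33 relative to follicular B-like cells, where K Slamf1 was lower still. Pdcd1lg2 was at -1.45 (-2.79 to -0.22) in K and -1.28 (-2.51 to -0.12) in CK, on 9 and 11 UMIs. Icosl (-0.06, -0.36 and 0.12), Il21r (-0.18, -0.16 and -0.18) and Il4ra (0.23, -0.18 and 0.03) had no ratio in CC past its counting error.

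**Figure D3:**
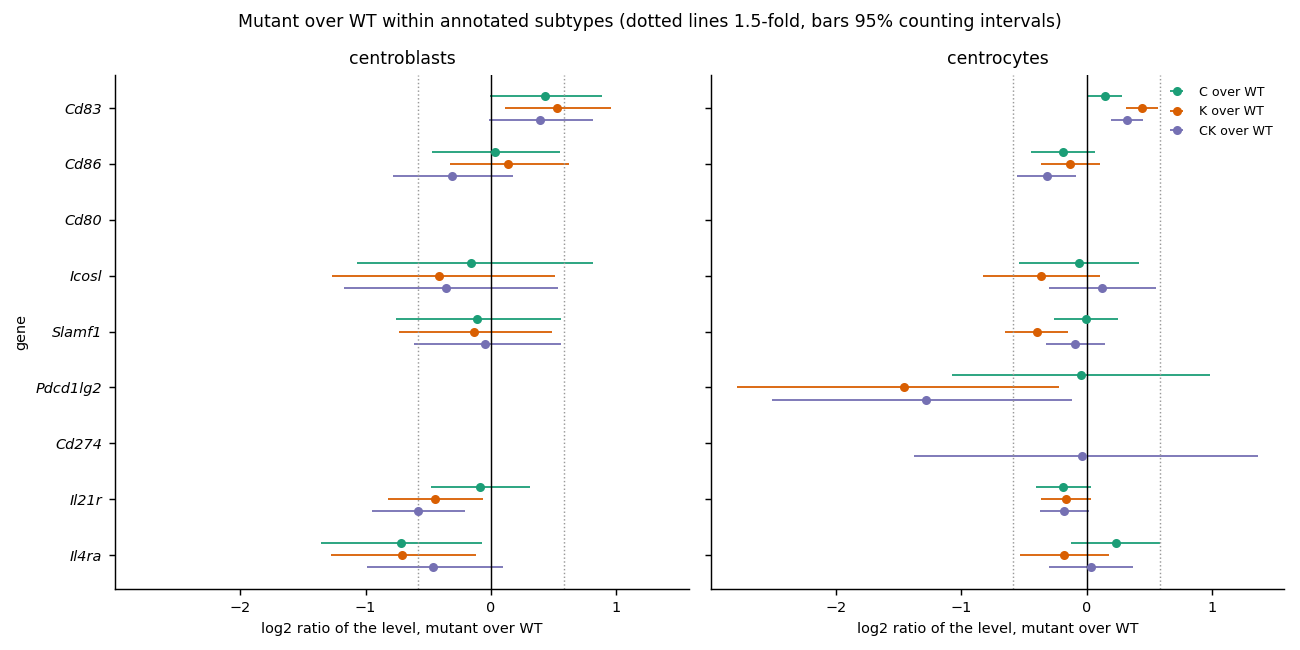
Log2 ratio of each mutant library over WT (horizontal axis, dotted lines at 1.5-fold) for the members with at least 20 UMIs in the pair, in centroblasts and in centrocytes, with bars for the 95% counting interval. Cd83 lies to the right of 0 in all 3 mutants in both subtypes, at 0.15 to 0.44 in centrocytes, and Il4ra lies to the left in centroblasts, at -0.72 to -0.46.

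Transitioning cells, the largest annotated subtype (471, 760, 1029 and 1498 cells), gave the narrowest Il4ra intervals of the annotated subtypes. The Il4ra ratios were -0.55 (-0.87 to -0.22), -0.57 (-0.86 to -0.28) and -0.53 (-0.82 to -0.25) for C, K and CK. In K, 55.1% of these cells lay in the 2 clusters led by K. The ratios of this subtype were not recomputed without those clusters. The counterpart of Il4ra, Il21r, was at -0.10, -0.04 and -0.04, within counting error of WT. Cd86 was at -0.22, -0.21 and -0.55 (-0.81 to -0.29), and Cd83 at 0.12, 0.13 and -0.14. Of 8 members measured, 1 (C, Cd274), 1 (K, Cd274) and 2 (CK, Cd274 and Pdcd1lg2) were lower by 1.5-fold or more, where 5.27%, 22.7% and 7.48% of all genes were. Cd274 rested on 15 UMIs in WT and 10 to 12 in the mutants, and Pdcd1lg2 in CK on 18 against 20. The median member ratios were -0.29, -0.37 and -0.39 for C, K and CK, beside 0.00, -0.14 and 0.01 for all genes.

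Shares of cells with a UMI depend on depth. CC of WT, C, K and CK held medians of 4741, 3498, 3811 and 2670 UMIs per cell, so each cell was thinned to 2000 UMIs, which left out 12, 34, 25 and 161 shallower CC. Cd83 was then found in 49.2%, 51.4%, 57.3% and 56.6% of CC (73.8%, 68.5%, 75.5% and 66.3% unthinned), and in 2.98% to 4.19% of T-like cells. After thinning all 3 mutants lay above WT, as in the CPM, whereas unthinned C and CK lay below it.

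Cd86 was found in 23.5%, 22.7%, 24.2% and 22.7% of thinned CC of WT, C, K and CK, near-equal shares, although the unthinned ones were 46.9%, 36.1%, 38.5% and 27.7%. Slamf1 was found in 25.1%, 24.5%, 19.5% and 21.4% of thinned CC (44.0%, 36.3%, 31.3% and 28.0% unthinned), against 2.64% to 3.78% of T-like cells. Il21r was found in 31.9%, 30.4%, 28.7% and 28.0%, and Il4ra in 13.8%, 14.97%, 11.8% and 10.3%. The last pair is also carried by T cells: in thinned T-like cells (median 1981.5 to 3295 UMIs) the shares were 14.8% to 19.9% for Il21r and 5.43% to 7.52% for Il4ra. T cell marker RNA was nevertheless scarce in CC, at 30.3 to 52.1 CPM for the summed marker list against 8459 to 9089 in T-like cells.

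Counted per cell, at least 3 of the 9 members were found in 20.8% (16.8% to 25.3%), 17.7%, 14.7% and 15.7% of thinned CC for WT, C, K and CK. In CB the shares were 3.45%, 2.44%, 1.27% and 0.81%, and in T-like cells 0.26% to 0.76%. WT had the largest share of such cells in both subtypes, but the mean number of members per CC was 1.57, 1.52, 1.502 and 1.495, close to level. The cells with no member made up 16.4% to 17.9% of CC and 59.8% to 63.6% of CB.

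Along the pseudotime of the annotation, split into 5 bins that hold equal numbers of WT cells, Cd83 in the first bin was at 117, 112, 138 and 109.5 CPM for WT, C, K and CK, and in the last at 334, 379.9, 512 and 466. The mutant values were highest in the last bin, while in WT the fourth (348) and last bins were level. The last bin differs in makeup: CC made up 49.4%, 52.5%, 71.9% and 75.2% of it and prememory cells 47.8%, 39.9%, 18.8% and 12.7%, again for WT, C, K and CK. The part of this makeup in the Cd83 values was not tested.

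For Cd86 the fourth bin was the highest of the 5 in each library, at 107, 102, 112 and 98.6 CPM for WT, C, K and CK, beside 85.2, 69.6, 102 and 90.04 in the last. The place of this peak depends on the bins: with 10 bins it was bin 6 (109.9 CPM), 8, 9 (118 CPM) and 7 for WT, C, K and CK, and the last of the 10 was lower than the one before it in each library. Slamf1 was highest in the fourth bin in WT (106) and C (91.3) and in the last in K (94.3) and CK (99.8), but with 10 bins its peaks were bin 8 in WT (126) and CK (104) and bin 9 in C (111) and K (100.4), so this split between libraries did not hold. Il21r was lowest in the first bin in each library, at 86.9, 96.7, 80.3 and 80.5 CPM, and lay between 116 and 183 in the later bins of all 4. Il4ra in the first bin was 48.1 CPM in WT against 27.8, 28.8 and 35.6 in C, K and CK, and in the fourth 67.5 against 72.1, 59.3 and 55.3. C was thus below WT at the CB end of the course and at the WT level in bin 4 of 5. K and CK were below WT in all 5 bins. The CK interval for Il4ra overlapped that of WT in each of these bins, however, and the K interval did so in bins 2, 4 and 5. With 10 bins, Il4ra in bin 4 was at 44.7 CPM in WT, 45.6 in K and 46.7 in CK, so this order depends on the bins. Icosl went from 25.4, 18.3, 21.1 and 19.5 CPM in the first bin to 34.9, 37.6, 33.5 and 54.2 in the last.

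**Figure D4:**
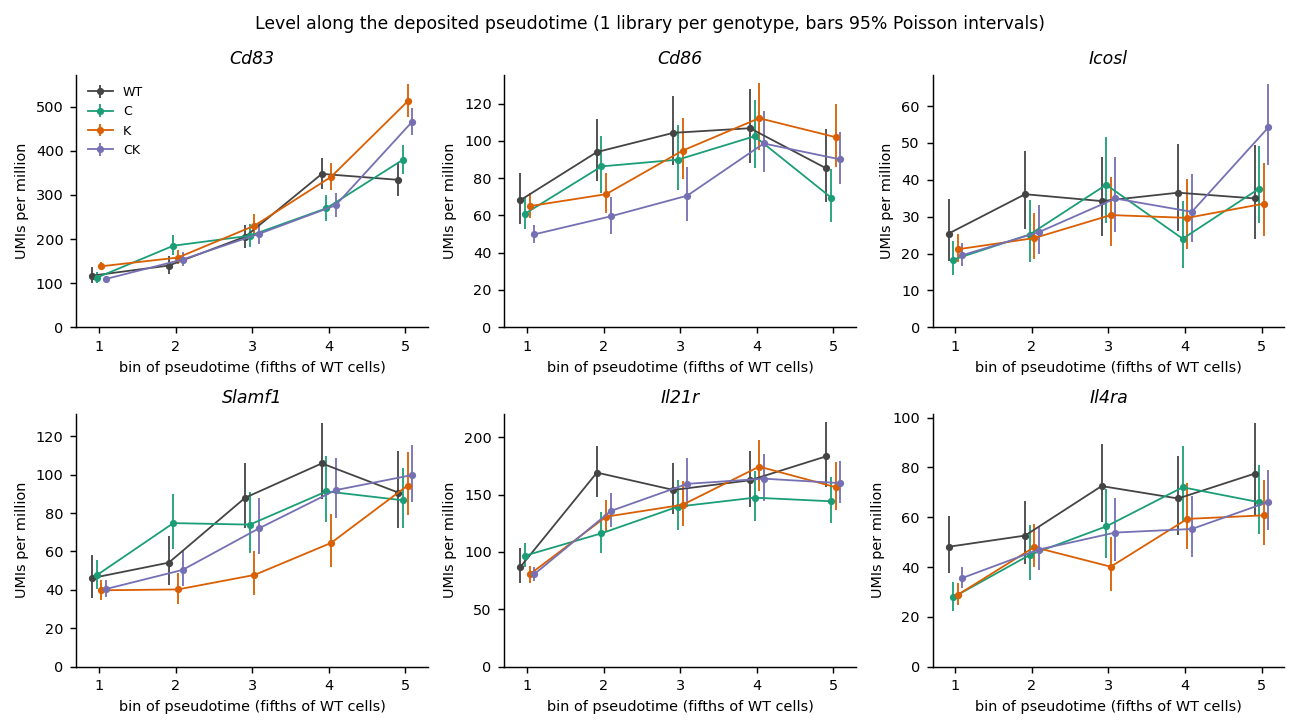
Level in CPM (vertical axes) of 6 genes in 5 bins of pseudotime (horizontal axis, bins set to hold equal numbers of WT cells), one line per genotype library with 95% Poisson intervals. Cd83 reaches 334 to 512 CPM in the last bin, Cd86 is highest in the fourth of these 5 bins in all 4 libraries (a peak that shifts with 10 bins), and Il4ra starts higher in WT (48.1) than in the mutants (27.8 to 35.6).

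CC with a UMI of Myc, a gene that T cell help induces in selected CC, were 22, 22, 49 and 53 for WT, C, K and CK. Cd83 was higher in these than in the other CC by log2 ratios of 1.33 (1.03 to 1.61), 1.09 (0.76 to 1.41), 0.75 (0.53 to 0.96) and 0.50 (0.24 to 0.74). Slamf1 was at 0.56, 0.65, 0.85 and 1.00 in the same comparison, Il21r at 0.65, 0.62, 0.52 and 0.11, and Cd86 at 0.49, 0.33, -0.07 and -0.10. The Cd86 ratios were within counting error in each library, as were those of Slamf1 in WT and C and of Il21r in C and CK. The Myc-positive cells were deeper, with medians of 5934.5, 4007.5, 4820 and 3891 UMIs against 4700.5, 3472, 3784.5 and 2632, and the part of depth in choosing them was not tested.

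Beyond the annotation, the 834, 627, 787 and 638 GC B-like cells at or above 2500 genes (WT, C, K and CK) held lower levels of the main ligands than CC. Cd83 was at 99.2, 84.6, 93.6 and 79.9 CPM, Cd86 at 54.6, 42.5, 46.3 and 32.9, and Slamf1 at 48.4, 48.7, 28.6 and 29.8. Here no mutant exceeded WT in Cd83, unlike in CC. The log2 ratio of Cd86 was -0.36 (-0.57 to -0.16), -0.24 (-0.42 to -0.06) and -0.73 (-0.96 to -0.51) for C, K and CK, and that of Slamf1 was 0.01, -0.76 (-0.97 to -0.55) and -0.70 (-0.94 to -0.46).

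In the same cells Icosl was at 14.8 CPM in WT and 9.17, 8.35 and 10.8 in C, K and CK, Il21r at 94.0 against 73.1, 75.7 and 68.5, and Il4ra at 30.5 against 20.2, 21.9 and 25.8. All 3 genes were lower in each mutant, although Il4ra in CK (log2 ratio -0.24, -0.51 to 0.03) was within counting error. Of 8 members measured, 2, 3 and 4 (C, K, CK) were lower by 1.5-fold or more, beside 4.65%, 22.2% and 8.05% of all genes, and the medians of -0.32, -0.39 and -0.52 stood beside -0.02, -0.16 and -0.02. These cells are the largest by gene count and their subtype is not given, so CB and CC are mixed in them in unknown shares.

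Other B cells carried the members in different proportions. In follicular B-like cells (1493, 2567, 1211 and 1802 cells) Cd83 was at 93.7, 119.9, 106 and 101 CPM in WT, C, K and CK, Il21r at 108, 100.5, 112 and 110.2, and Il4ra at 76.4, 62.5, 60.5 and 69.4. Their Il4ra level was above that of CC in WT, and the mutants lay below WT here too (-0.29, -0.34 and -0.14 on the log2 scale). The CK ratio, with an interval of -0.43 to 0.15, was within counting error. Icosl was at 37.0 and 33.6 CPM in WT and C but 17.7 and 23.6 in K and CK, log2 ratios of -1.06 (-1.62 to -0.53) and -0.65 (-1.13 to -0.19) for the last pair. In K, Slamf1 (-0.72, interval -1.24 to -0.23) and Cd274 (-1.21, -2.02 to -0.46) were lower in follicular B-like cells as well, so K was low in these genes outside the GC too.

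Marginal zone B-like cells (285, 555, 133 and 186 cells) had the highest Cd274 of the classes, at 51.2, 46.7, 38.3 and 60.5 CPM, and their Icosl of 39.4, 49.4, 35.7 and 39.4 CPM was at the CC level. Cd86 was at 45.3 CPM in WT and 26.8 in C there, with K (43.4) and CK (44.7) near WT. In plasma cell-like clusters (44 to 72 cells) Cd83, Cd86, Slamf1 and Il4ra were under 10 CPM in each library, whereas Cd274 was at 17.6, 14.7, 8.67 and 19.2 on 8 to 14 UMIs.

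**Figure D5:**
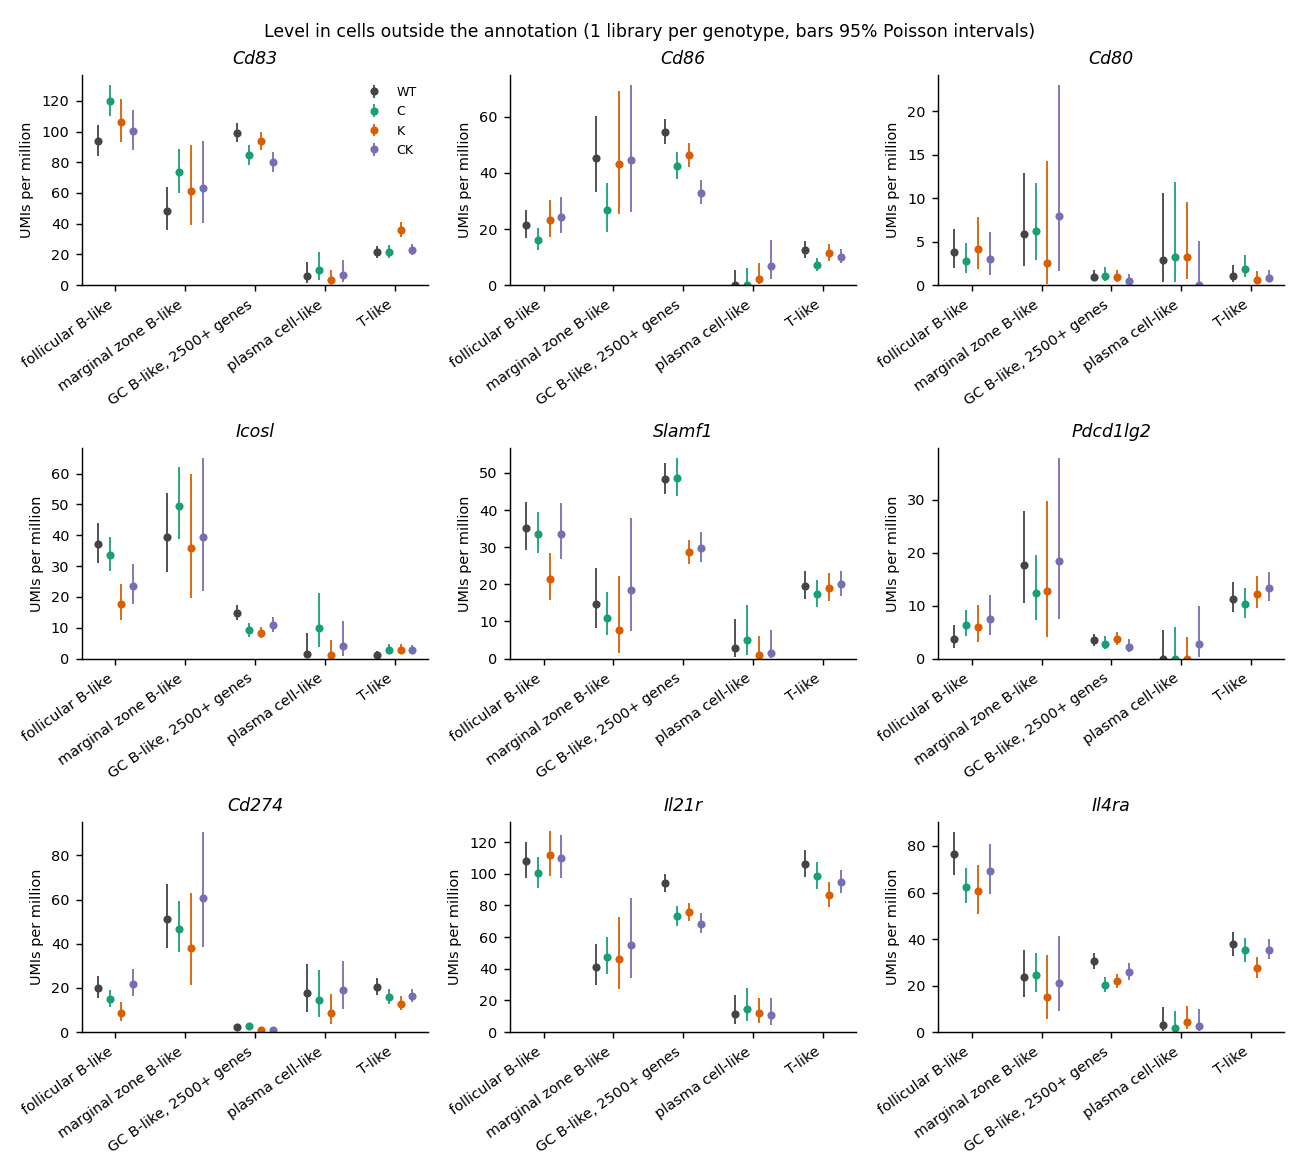
Level of each gene in CPM (vertical axes) in cells outside the annotation, grouped by marker-named clusters (follicular B-like, marginal zone B-like, GC B-like at or above 2500 genes, plasma cell-like and T-like), one point per genotype library with 95% Poisson intervals. Cd274 is highest in marginal zone B-like cells (38.3 to 60.5 CPM) and Il21r is near 100 CPM in both follicular B-like and T-like cells.

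Genes that work with the members were read from fixed lists, against the shares of all genes given above. Of 20 further B cell surface partners of T cells, such as CD40, adhesion molecules and other SLAM receptors, 12 could be measured in CK CC, where 0 were lower and 1 was higher by 1.5-fold (Tnfsf9, the 4-1BB ligand, 0.73, -0.05 to 1.56), and 12 in CK CB, where 3 were lower and 1 (Tnfsf9, 0.60, on 5 UMIs in WT) higher. The lower ones were Icam1, an LFA-1 ligand, at -0.85 (-1.38 to -0.30), Cd84, a SLAM family receptor, at -0.75 (-1.28 to -0.20), and Btla, an inhibitory receptor, at -0.68 (-1.14 to -0.19). In CC the list had 1 gene higher and 0 lower in C (Tnfsf9) and in K (Lgals9), with medians of 0.09, -0.24 and -0.01 for C, K and CK.

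Of 18 genes of cytokine receptor signalling, 14 could be measured in CC, with 0, 3 and 1 lower and 1, 2 and 1 higher by 1.5-fold in C, K and CK, and medians of 0.01, -0.04 and -0.03. The 3 lower in K were Il2rg, the common gamma chain that pairs with both receptors, at -0.63 (-0.91 to -0.35), and the kinases Jak1 at -0.87 (-1.07 to -0.67) and Jak2 at -2.04 (-2.87 to -1.27). Batf, a transcription factor that IL-21 induces, was at 20.2 CPM in WT CC and 38.4 in CK CC, a log2 ratio of 0.92 (0.37 to 1.51), with 0.61 in C and 1.54 in K, and Il10ra, the IL-10 receptor alpha chain kept in the same list, was at -0.65 (-1.38 to 0.08). In CB 1, 5 and 1 members of the list were lower and 1, 0 and 0 higher. Stat5a was at -0.73 (-1.505 to 0.10) in CK and -1.36 (-2.42 to -0.32) in C, and in K the kinases Jak1 and Jak2 were at -0.84 and -1.44. March1, the ligase that removes CD86 and MHC class II and that CD83 opposes, was at -1.27 (-1.54 to -0.997) in K CB and -1.23 (-1.47 to -0.99) in K CC, but at 0.10 and 0.05 in C and -0.15 and 0.01 in CK. K had the lowest March1 and the highest Cd83 in CC, in a library whose median gene was also lower. In C and CK, Cd83 in CC was above WT too, at 0.15 and 0.32, while March1 was near WT. A link between the levels of these genes was not tested.

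The receiving side was read in 8376 T-like cells, which the B220+IgD- sort carried along. This class pools T cells of several kinds, and its largest cluster, of 4119 cells, had Cd8a and Cd8b1 among its leading genes. Another cluster, with Cd4, Pdcd1 and Sh2d1a among its leading genes, held 343, 354, 454 and 799 cells of WT, C, K and CK. The whole class held 1527, 1941, 1722 and 3186 cells, and the part of this mix in the values was not tested. In the whole class Cd28 stood at 249, 227, 243 and 255 CPM, Icos at 97.5, 74.5, 94.3 and 92.0, and Pdcd1 at 86.3, 72.3, 87.5 and 81.6 in WT, C, K and CK. C was the lowest library for each of these 3 genes. Il21 gave 82, 80, 34 and 94 UMIs, or 14.5, 14.9, 6.21 and 12.9 CPM, so K was below the other libraries, and Il4 was at 9.39, 11.6, 14.1 and 13.7 CPM. Ctla4, the second CD28-family receptor of CD80 and CD86, was at 49.1, 37.4, 46.8 and 36.9 CPM, Sh2d1a, the adaptor of SLAM receptors, at 266, 232, 257 and 271, Cd40lg at 17.4, 23.2, 18.3 and 21.7, and Cxcr5 at 39.2, 27.8, 42.6 and 33.8. These cells were not sorted as T cells, and what share of the T follicular helper cells entered the gate is not known.

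Across 19 profiles of cell class and genotype with enough UMIs, the members fell into groups by level. Cd86 and Slamf1 were alike (Pearson's r of 0.87), as were Pdcd1lg2 and Cd274 (0.84), while Cd86 and Cd274 ran opposite (-0.71). Il21r and Il4ra had each other as the most alike gene of all those compared (0.898). The genes most alike to Cd83 were Cd52 (0.958) and Phf11b (0.939), those to Cd86 were Cnn2 (0.942) and Capzb (0.940), and those to Slamf1 were Srpk3 (0.932) and Sorl1 (0.930). For Icosl they were Svbp (0.868) and Cd180 (0.858), and for Cd274 Pdia4 (0.943) and Irf1 (0.942). The profiles share libraries and cell classes, so these correlations describe the pattern over classes and carry no test.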

How the data were processed

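The 4 libraries were deposited by the authors as raw UMI counts per gene and barcode, made with Cell Ranger 3.0 on mm10 per the submitters' processing notes, which also name Seurat 4.0. The authors' cell table, whose other deposited columns are GC subtype and pseudotime, was used for labels only. The study's methods describe label transfer from reference datasets. Barcodes were joined to the table within each library.

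All cells under 8% mitochondrial counts were clustered with the members left out (2000 variable genes, 30 components, Leiden resolution 1 in igraph 0.11.9), and clusters were named from fixed markers. Of annotated cells 1.39% to 4.02% were marked as doublets by Scrublet as run in scanpy 1.11.5 and kept. The score's random seed was changed after an earlier one marked none in C. Counts were summed per library and class and scaled to CPM, with exact Poisson and binomial intervals at 95% (Python 3.11.15, scipy 1.17.1). Genes needed 20 UMIs in a pair of groups for a ratio. Code was tested on simulated data. The members and gene lists were chosen with earlier results of these data known. Beyond the members, the text names up to 4 list genes per subtype with the largest CK over WT ratios past 1.5-fold on at least 50 UMIs, and the 2 most alike genes per member. March1, the T cell genes and list genes named for C or K alone, or on fewer UMIs, were named after their values were seen. No test between genotypes was possible with 1 library each. Total counts of 33270825 to 39803865 UMIs per library set the precision. Intervals and floors cover counting error only. 1 gene of the signalling list is not reported here by name.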

Additional observations from a re-analysis of the deposited data

Results flagged for a closer look

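For Il4ra the C over WT ratio had opposite signs in the 2 zones, lower than WT in CB (-0.72 on the log2 scale) and higher in CC (0.23). The CC ratio alone, with an interval of -0.12 to 0.59, was within counting error. The difference between the zones was 0.95, with a counting interval of 0.21 to 1.67. This result was picked from all members and mutants for its opposite signs and its interval, which is not widened for that choice. The interval covers counting error in 4 groups of cells from 2 mice, and the difference between mice was not tested. The level in CB was 39.5 CPM in WT on 38 UMIs and 24.1 in C on 50.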

How the results depend on the processing

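No paired analysis was possible because there was 1 library per genotype and no replicate number, and for the same reason no replicate could be left out. Of 320 recomputed member ratios in CB and CC, 299 stayed within the counting interval, 278 kept their sign and 267 did both. Of 189 steps from CB to CC, 179 did both, and of 60 list medians 50 did. All 28 counts of members higher in CC stayed within 1.5 times. With 10 pseudotime bins, 9 of 35 ratios of last to first bin left their interval. The K over WT median in CB was 0.27 with cells thinned to 2000 UMIs, 0.18 relative to follicular B-like cells and -0.62 without the K-led clusters, an alternative chosen after seeing the data, and in CC it was -0.0024 with median-ratio scaling and 0.16 relative to follicular B-like cells. Relative to follicular B-like cells, Cd83 in C CC was -0.21 and Slamf1 in K CC 0.33. Counts of members past 1.5-fold in CB became, for C, 2 thinned, 0 relative to follicular B-like cells, 4 with no filter and 0 at 2-fold. For K they became 0 by mean over cells, 0 with cells at or above 2500 genes added, 4 without the K-led clusters, 2 relative to follicular B-like cells and 0 at 2-fold, and for CK 1 thinned, 1 without those clusters, 1 relative to follicular B-like cells and 1 with no filter. In CC they became 1 thinned and 1 relative to follicular B-like cells for C. For K CC they became 2 with median-ratio scaling, 2 relative to follicular B-like cells, 2 with no filter and 0 at 50 UMIs, and for CK CC 2 thinned, 2 with the added cells, 2 relative to follicular B-like cells and 0 at 50 UMIs. The cause of these shifts was not tested. Shares of cells with a UMI moved in 59 of 72 values on thinning, so depth limits them, and Cd80, Cd274 and Pdcd1lg2 were limited by few UMIs.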
